A study of Arabidopsis thaliana with 8 samples.

Results

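Seedlings of a gibberellin-deficient mutant of Arabidopsis thaliana were compared with seedlings of the wild type Ler, Ler-0 in the labels, the accession in which the mutant was made. The arrays were chosen by the source given in the labels, 2 of the mutant and 2 of Ler, out of 8 arrays in all. Every probe set of the array that is not a control was considered. Both groups consisted of whole seedlings, 7 days old and untreated. The mutant carries a leaky allele, which means that some gene activity is left, and the labels name neither the gene nor the allele. The other 4 arrays, 2 of the wild type Ws and 2 of a de-etiolated mutant made in Col, were of the same age and also untreated. They served to estimate the spread between arrays and are shown beside the results.

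Gibberellins are diterpenoid hormones that promote germination, stem elongation and leaf expansion. They bind the GID1 receptors, and the bound receptor brings the growth-repressing DELLA proteins to an F-box protein, SLY1, for degradation. Plants with little gibberellin keep their DELLA proteins and grow as dark green dwarfs.

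Each array gave 1 signal per probe set, scaled so that the mean without the top and bottom 2% was 100.01 in every array to within rounding. Median signals lay between 37.3 and 38.4 in the 4 arrays compared. Log2 signals correlated across all probe sets that are not controls. The r was 0.971 between the Ler arrays, 0.965 between the mutant arrays and 0.945 to 0.955 between the groups. The signal of the 25S ribosomal RNA control was 69.7 and 39.6 in the mutant and 30.3 and 26.0 in Ler. The 3′ probe set of the older actin control was brighter than its 5′ probe set by a ratio of 3.84 and 4.93 in the mutant and 5.22 and 4.77 in Ler. For actin this ratio was 2.26 and 1.90 in Ws and 2.35 and 2.32 in the de-etiolated mutant. For the ubiquitin control it was 0.83 and 0.65 in the mutant and 0.67 and 0.63 in Ler. For the GAPDH control it was 0.48 and 0.63 in the mutant and 0.44 and 0.72 in Ler. The part of these controls in the results was not tested. Of the marker genes, 3 of 10 for root and 1 of 12 for green tissue were measured, and none of 10 for seed storage was named by a probe set. The root marker PYK10, a beta-glucosidase, had 1821 and 1531 in Ler and 1602 and 1619 in the mutant (log2 change -0.05, adjusted p = 0.87). The root hair expansins EXPA7 (-0.21, adjusted p = 0.61) and EXPA18 (0.36, adjusted p = 0.27) and the green tissue marker RCA, Rubisco activase (0.36, adjusted p = 0.44), were not called either. The samples are bulk RNA, so fewer cells of a type and less RNA per cell cannot be told apart. The labels do not state whether a group's seedlings were grown separately, and p-values therefore measure only the spread between these samples.

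Called higher in the mutant than in Ler were 9 of 15 measured genes of the low-oxygen response, 12 of 37 class III peroxidases and 3 of 12 expansins. Called lower were 7 of 15 plastid ribosomal protein genes, 4 of 7 peroxisomal and glyoxylate enzymes and 4 of 7 CYP71B cytochromes P450. The lists and classes were chosen with earlier results of these data known, so such counts, here and below, are descriptions. Changes below are differences of the group means of log2(signal + 2.96), mutant minus Ler, and SE is the standard error of such a difference. A probe set was called when its limma p-value, adjusted over all 13647 probe sets tested, was under 0.05. In all 1464 probe sets were called, which is 10.7% of those tested, with 621 higher in the mutant (4.55%) and 843 lower (6.18%). Of these, 171 were at least 2-fold higher (1.25% of all tested) and 327 at least 2-fold lower (2.4%), together 3.65%. Changes of at least 4-fold were found for 16 probe sets on the higher side and 47 on the lower side. Among 7268 named genes, each with 1 probe set, 327 were called higher (4.5%) and 425 lower (5.85%), in sum 10.3%. Of the called probe sets 671 named no gene and are not described here.

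Most differences were small. The median change over all tested probe sets was 0.0086, and their quartiles were -0.25 and 0.24. Both mutant arrays lay above both Ler arrays for 29.7% of the probe sets and below both for 27.7%, so lack of overlap, at 57.4%, was common. In none of the called probe sets did the arrays of the groups overlap. The share called rose with brightness, from 6.01% in the dimmest of 4 equal classes of tested probe sets to 15.5% in the brightest, while the median SE fell from 0.26 to 0.146. By chromosome, 9.39% to 11% of the measured nuclear genes were called. Of 68 measured plastid-encoded genes 22.1% were called, 14 lower and 1 higher, and of 11 mitochondrion-encoded genes 9.09%.

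**Figure D1:**
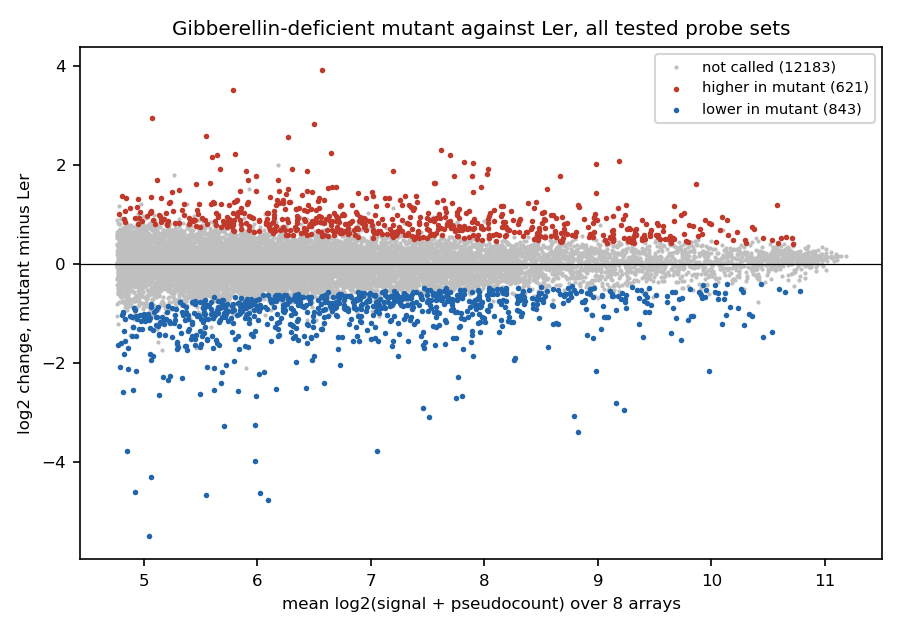
Log2 change (mutant minus Ler, vertical axis) of each of 13647 tested probe sets against its mean log2(signal + 2.96) over 8 arrays (horizontal axis). The 621 probe sets called higher and the 843 called lower are coloured, and the spread of the uncalled ones narrows as the signal rises.

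Few genes of the hormone itself could be followed. None of 14 listed genes of gibberellin synthesis and inactivation was named by a probe set, so the mutation itself was not checked. Of 20 listed genes of perception, signalling and response 7 were measured, and 1 rose, against 4.5% of all named genes called higher. XERICO, a RING-H2 protein whose transcript DELLA proteins are known to raise, had signals of 86.0 and 94.5 in Ler and 160.0 and 189.8 in the mutant (change 0.93, SE 0.17, adjusted p = 0.0049). The groups did not overlap, and Ws (75.1 and 74.7) and the de-etiolated mutant (97.5 and 84.9) lay at or near the Ler level. Without mutant replicate 2 the adjusted p of XERICO was 0.058.

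The 3 gibberellin receptors stood higher in the mutant without passing the test. GID1A had 83.5 and 89.3 in Ler and 128 and 109 in the mutant (0.44, adjusted p = 0.11), and GID1B 62.0 and 82.7 in Ler and 98.5 and 115 in the mutant (0.55, adjusted p = 0.21). GID1C had 31.1 and 32.1 in Ler and 38.7 and 43.1 in the mutant (0.34, adjusted p = 0.47). For each receptor both mutant arrays lay above both Ler arrays, which held for 29.7% of all tested probe sets. SPY, an O-fucosyltransferase that restrains the pathway, had a change of 0.32 (adjusted p = 0.24), and SLY1 one of -0.09 (adjusted p = 0.8). AT1G22690, listed with the gibberellin-responsive GASA family, had 48.0 and 52.5 in Ler and 36.1 and 17.8 in the mutant, a change of -0.90 (adjusted p = 0.055). That change was -1.36 without mutant replicate 1 (adjusted p = 0.017) and -0.44 without its replicate 2. The median of the 7 genes was 0.34, against 0.0052 over all named genes.

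The growth-related classes had 1 to 3 called members each, apart from the peroxidases and the cytoskeleton, against 4.5% of all named genes called higher and 5.85% lower. Expansins, which loosen cell walls, had 3 of 12 measured members higher and none lower, with a median of 0.44. EXPA20 had 33.7 and 39.8 in Ler and 81.7 and 85.4 in the mutant (1.13, adjusted p = 0.005), and its call was kept without any 1 array. EXPB3 (0.94) and EXPA9 (0.78) were called too, and both calls were lost without Ler replicate 1 (adjusted p = 0.19 and 0.13), mutant replicate 1 (0.093 and 0.072) or mutant replicate 2 (0.14 and 0.11). Just short of the threshold stood EXPA15, at 120.4 and 120.5 in Ler and 309 and 152 in the mutant (adjusted p = 0.054), and EXPA8, at 71.1 and 74.4 in Ler and 126 and 135 in the mutant (adjusted p = 0.06). The mutant arrays of EXPA15 thus differed from each other by more than its replicate 2 differed from Ler.

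Of 8 xyloglucan endotransglucosylases, which cut and rejoin xyloglucan chains, 2 rose and 1 fell, with a median of -0.08. XTH32 had 379.6 and 404 in Ler, 782 and 796 in the mutant and 486 and 493 in Ws (1.0, SE 0.12, adjusted p = 6.7e-04). XTH19 stood at 109 and 133 in Ler and 284 and 279 in the mutant (1.2, adjusted p = 0.0042). Both calls held without any 1 array. XTH33 was the member that fell (-0.79), and it was not called when Ler replicate 1 was omitted (adjusted p = 0.098), nor without Ler replicate 2 (0.17) or mutant replicate 1 (0.26).

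Enzymes of wall polymers changed in both directions. IRX15-L, which acts in xylan synthesis, had 36.8 and 36.6 in Ler, 93.2 and 85.6 in the mutant, 36.3 and 31.9 in Ws and 27.4 and 26.4 in the de-etiolated mutant (1.22, adjusted p = 0.003). The mutant arrays were more than 2-fold above all 6 others. ATPMEPCRB, a pectin methylesterase, fell from 244 and 169 to 53.6 and 54.5 (-1.85, adjusted p = 4.1e-04). In the cellulose synthase-like family (median change 0.28) 2 of 8 rose, CSLC6 (0.70) and CSLD2 (0.60), and CSLC04 fell (-0.49, adjusted p = 0.049). The call of CSLC6 was lost without any 1 array of Ler or the mutant (adjusted p up to 0.11), that of CSLD2 when Ler replicate 1 or either mutant array was omitted (up to 0.13), and that of CSLC04 without any 1 of these 4 arrays or of Ws (up to 0.28).

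Of 14 TBL proteins, a family that acetylates wall polysaccharides (median change 0.19), TBL25 (221 and 204 in Ler, 434 and 462 in the mutant, change 1.07) and TBL39 (1.02) rose and TBL37 fell (235 and 277 in Ler and 138 and 138 in the mutant, change -0.87). TBL39 was not called when Ler replicate 1 was omitted (adjusted p = 0.0501), or without mutant replicate 2 (0.054). Among 5 subtilases, which are secreted proteases, SBT1.3 rose from 277 and 305 to 632 and 589 (1.06, adjusted p = 5.6e-04). SBT4.12 also rose (0.88) and SBT3.5 fell (-1.28), and each lost its call without 3 of the 4 arrays compared. These arrays were Ler replicate 2 and both mutant arrays for SBT4.12 (adjusted p = 0.086, 0.1 and 0.058), and both Ler arrays and mutant replicate 1 for SBT3.5 (0.059, 0.15 and 0.19). The secreted signalling peptides RALFL32 (0.91) and RALFL34 (0.49) rose of 6 measured RALF-like genes, whose median was 0.25. Neither was called when Ler replicate 1 or either mutant array was omitted (adjusted p up to 0.12 and 0.17), nor RALFL34 without Ler replicate 2 (0.13).

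Class III peroxidases, secreted enzymes that cross-link or loosen wall polymers with hydrogen peroxide, had more called members than any other class of nuclear genes. The class was compiled by locus tag after values had been seen, so its count is a description. Of 73 listed genes 55 were named by a probe set and 37 were tested, and 12 rose and 2 fell, with a median of 0.33. Among all named genes 4.5% were called higher and 5.85% lower. Both mutant arrays lay above both Ler arrays for 22 of the 37 and below both for 5, against 29.7% and 27.7% of all tested probe sets. AT2G37130 had 240.2 and 399.9 in Ler, 824 and 978 in the mutant and 270.5 and 332 in Ws (1.53, SE 0.21, adjusted p = 0.0013). AT3G01190 had 67.9 and 60.2 in Ler and 166 and 214 in the mutant, with 58.2 and 59.4 in Ws and 44.0 and 38.9 in the de-etiolated mutant (1.52, adjusted p = 5.7e-04). For both genes the mutant stood above all 6 other arrays.

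AT5G66390, peroxidase 72, which acts in lignin formation, rose from 62.5 and 65.9 to 158 and 139.7 (1.17, adjusted p = 0.0011). In Ws its signal was 107 and 116 and in the de-etiolated mutant 104 and 109.9, between Ler and the mutant. AT5G15180 (1.1), AT2G18980 (1.1) and AT3G49960 (0.98) followed. Without single arrays these were not called, which holds for AT5G15180 without Ler replicate 1 (adjusted p = 0.052) or mutant replicate 2 (0.065), AT2G18980 without Ler replicate 1 (0.064) or mutant replicate 1 (0.077), and AT3G49960 without mutant replicate 2 (0.052). The other 6 that rose had changes of 0.58 to 0.75. Of these, AT4G30170 was at 559.9 and 519 in Ler, 869.6 and 953 in the mutant and 271 and 231 in the de-etiolated mutant. Each of the 6 lost its call without either mutant array, and all but AT4G30170 lost it without Ler replicate 1 and all but AT5G64100 without Ler replicate 2 (adjusted p up to 0.26). AT1G44970 was also not called without either Ws array (0.054 and 0.055). The members that fell were AT5G58390, from 79.1 and 60.5 to 20.4 and 26.9 (-1.45, adjusted p = 0.0025), and AT5G39580 (-0.93), which was not called without any 1 array of Ler or the mutant (adjusted p up to 0.12). The number of peroxidases called higher was 5 and 7 without Ler replicate 1 and 2, and 5 and 4 without mutant replicate 1 and 2. Many of these enzymes are known from roots, and the root markers PYK10, EXPA7 and EXPA18 had the changes given above, between -0.21 and 0.36. Their part in the result was not tested.

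**Figure D2:**
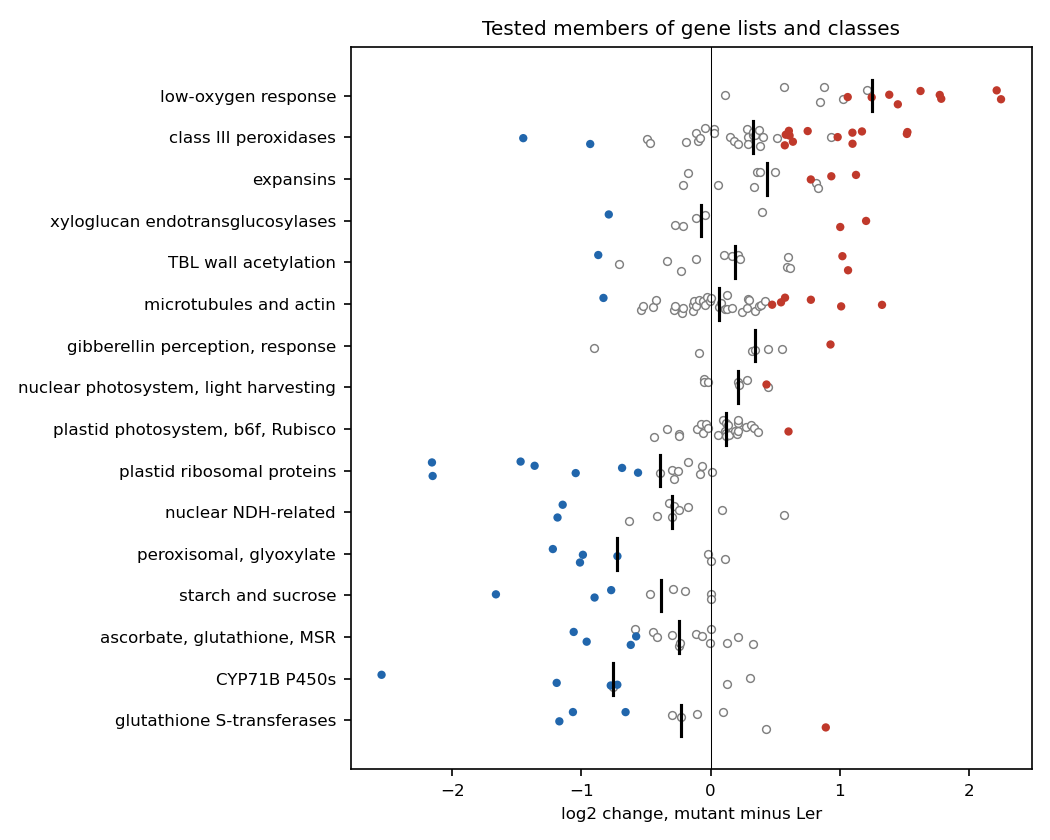
Log2 change (mutant minus Ler, horizontal axis) of each tested member of 16 gene lists and classes (rows), with filled points for called genes (red higher, blue lower), open points for others and a black bar at the median. The low-oxygen genes lie highest, with a median of 1.25, and the CYP71B genes (median -0.75) and peroxisomal enzymes (-0.72) lowest.

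Among 39 genes of microtubule and actin organisation 6 rose and 1 fell, with a median of 0.07. The number called higher was 3 without Ler replicate 2, and 1 without any other single array of Ler or the mutant. AN, which shapes leaf cells through microtubules, had 106 and 109 in Ler, 289 and 261 in the mutant and 101 and 104 in Ws (1.33, adjusted p = 0.0013). The actin-bundling LIM proteins PLIM2b (1.01) and WLIM2b (0.58) and the beta-tubulins TUB1 (0.78) and TUB6 (0.48) were among the others called higher. TRM15 was called lower (-0.83). Besides AN, none of the calls named here was kept throughout when single arrays were left out. Those of PLIM2b, WLIM2b, TUB6 and TRM15 were lost without any 1 array of Ler or the mutant (adjusted p up to 0.1, 0.18, 0.23 and 0.16), and TUB6 was also not called without either Ws array (0.06 and 0.06). TUB1 was no longer called after omission of Ler replicate 1 (0.098) or either mutant array (up to 0.086). In the TAIR10.1 assembly AN, PLIM2b and TBL25 lie between AT1G01080 and AT1G02020, a stretch picked after the values were seen. There 20 of 32 measured genes were called higher, against 4.5% of all named genes, and none lower. AT1G01300 (323 and 305 in Ler, 810.5 and 917 in the mutant) and AT1G01230 (162 and 163 in Ler and 380.0 and 391 in the mutant) lie there too.

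Single regulators of growth and hormone response changed as well. SIM, which blocks cyclin-dependent kinases and so promotes endoreduplication, had 119 and 139 in Ler, 278 and 296 in the mutant and 231 and 128 in the de-etiolated mutant (1.14, adjusted p = 0.0089). GH3.17, which conjugates auxin to amino acids, rose from 105 and 99.8 to 231 and 199.7 (1.05), and MYC3, a transcription factor of the jasmonate response, from 37.3 and 45.5 to 72.4 and 89.6 (0.92). PYE, a regulator of iron homeostasis, was at 49.4 and 42.9 in Ler and 106 and 85.2 in the mutant (1.0). For each of these 4 genes the groups did not overlap, yet the calls depended on single arrays. SIM was not called when Ler replicate 1 or either mutant array was omitted (adjusted p up to 0.069), GH3.17 and PYE without any 1 of the 4 arrays (up to 0.13 and 0.18), and MYC3 without Ler replicate 1 (0.11) or mutant replicate 2 (0.12). In the cold, dehydration and abscisic acid list tny, an AP2 transcription factor, rose from 113 and 151 to 308 and 279 (1.15, adjusted p = 0.0018), and the dehydrin COR47 from 627 and 619 to 903 and 989 (0.60). These were 2 of 4 measured genes, against 4.5% of all named genes called higher. The call of COR47 was lost without any 1 of the 4 arrays compared. The temperature-induced lipocalin TIL went from 635 and 700.1 to 1300.1 and 1159 (0.88, adjusted p = 0.0026).

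Genes of the low-oxygen response, which plants switch on when respiration lacks oxygen, stood higher in the mutant across the whole measured list. Of 36 listed genes 15 were measured, and 9 rose and none fell, with a median change of 1.25. Over all named genes 4.5% were called higher. All 15 changes were above 0. For 14 of the genes both mutant arrays lay above both Ler arrays, against 29.7% of all tested probe sets. Several members were known to be among the largest rises when the list was written, so the count is not independent evidence of its direction. AT4G39675 had 147 and 98.7 in Ler, 669 and 487 in the mutant, 145 and 174 in Ws and 243 and 106 in the de-etiolated mutant (2.22, SE 0.32, adjusted p = 0.0014). AT5G66985 had 275 and 188 in Ler, 771 and 509 in the mutant and 140.4 and 111 in Ws (1.45, adjusted p = 0.002). In both genes the mutant stood above all other arrays, and both calls held without any 1 array.

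The remaining calls of the list rested on single arrays. AT5G10040 (2.25) and AT3G27220 (1.25) were not called when Ler replicate 2 was omitted (adjusted p = 0.07 and 0.053), or without mutant replicate 1 (0.1 and 0.069). The same held for AT1G33055 (1.79, 0.12 and 0.15), AT2G17850 (1.78, 0.14 and 0.17), AT4G27450 (1.63, 0.098 and 0.094) and AT4G33560 (1.38, 0.17 and 0.17). These 4 also lost their calls without mutant replicate 2 (adjusted p = 0.064, 0.056, 0.084 and 0.088), as did AT3G10020 (1.06, 0.061). The change of AT4G27450 was 1.07 without Ler replicate 2 and that of AT2G17850 1.09. Of the members that were not called, PDC2, a pyruvate decarboxylase of ethanol fermentation, had 245 and 271 in Ler and 414 and 354 in the mutant (0.57, adjusted p = 0.067). AT4G24110 (1.21, adjusted p = 0.055) and AT1G19530 (1.03, 0.059) also missed the threshold, and CML38, a calmodulin-like protein, had a change of 0.11.

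The low-oxygen genes varied between arrays of 1 group as well. Ler replicate 1 was above replicate 2 for 14 of the 15, by a median of 0.69 on the log2 scale, whereas over all tested probe sets it was above for 46.7%. The de-etiolated mutant had its replicate 1 above replicate 2 for 14 of the 15 too, by a median of 1.16. In the gibberellin-deficient mutant replicate 1 was above for 12 of the 15, by a median of 0.23, against 49.1% of all tested probe sets. In Ws it was above for 9 of the 15, by a median of 0.0059. AT4G27450, for example, had 915 and 420.4 in Ler, 1933 and 1912 in the mutant and 1541 and 659 in the de-etiolated mutant. AT1G33055 was at 204 and 106 in Ler, 602 and 443 in the mutant and 427 and 134 in the de-etiolated mutant. The number called higher was 3 without Ler replicate 2, 3 without mutant replicate 1 and 4 without its replicate 2. It was 14 when either array of the de-etiolated mutant was left out, or when the 4 arrays of Ler and the mutant were fitted alone. What set the level of these genes in single arrays was not tested.

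**Figure D3:**
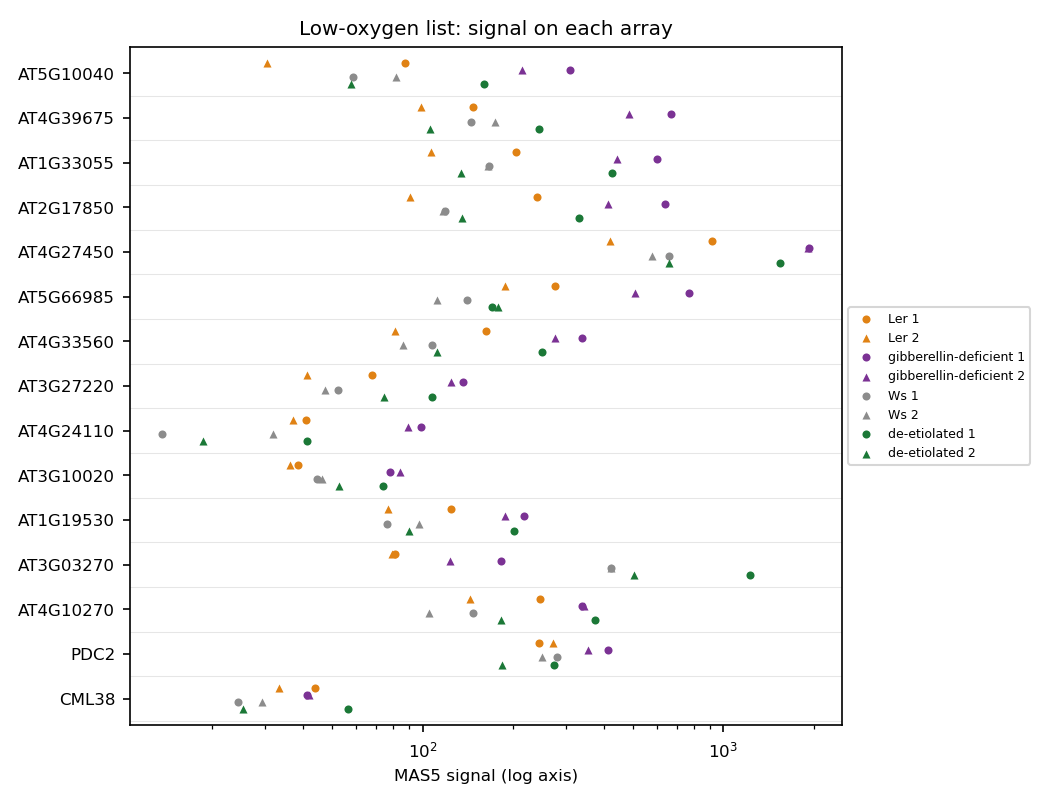
Signal (horizontal axis, log scale) of the 15 measured low-oxygen genes (rows) on each of 8 arrays, with circles for replicate 1, triangles for replicate 2 and a colour for each group. The purple mutant points lie to the right of the orange Ler points in 14 genes, and the circle lies to the right of the triangle in 14 genes within Ler.

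Universal stress proteins, small nucleotide-binding proteins linked to stress responses, had 3 of 16 measured members higher and none lower, with a median of 0.20. Over all named genes 4.5% were called higher. AT3G11930 had 128 and 83.0 in Ler and 440.5 and 314 in the mutant (1.82, adjusted p = 0.0011), and the de-etiolated mutant had 642 and 410.2. RD2 (0.59) and AT3G01520 (0.56) rose less, and their calls were lost without either mutant array or Ler replicate 2 (adjusted p up to 0.17 and 0.15), and that of AT3G01520 also without Ler replicate 1 (0.081). AT3G03270, which is on the low-oxygen list too, had 81.2 and 79.3 in Ler, 182 and 124 in the mutant and 424 and 423 in Ws (adjusted p = 0.097).

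Among other genes with the largest rises, AT2G15560 had 12.1 and 3.93 in Ler, 151 and 152 in the mutant, 182 and 218 in Ws and 301 and 210.1 in the de-etiolated mutant (3.92, SE 0.30, adjusted p = 2.8e-05). Ler thus stood apart from all 6 other arrays. AT2G47780 had 84.5 and 154 in Ler and 427 and 555 in the mutant (2.06), AT1G33790 32.2 and 54.9 in Ler and 148 and 181 in the mutant (1.89), and AT3G05190 34.8 and 36.2 in Ler and 132 and 112 in the mutant (1.70). AT1G72800 (1.70) and AT2G19970 (1.63) were higher in the mutant than in any other array. AT2G25450 passed the same rule at a low level, with 7.20 and 3.19 in Ler and 18.8 and 22.3 in the mutant (1.57), while Ws had 899 and 649.8 and the de-etiolated mutant 682 and 957. Ler and mutant signals of AT2G25450 all lay under 24.2, the lowest mean signal tested. It passed the filter only through the Ws and de-etiolated arrays. Its change was 0.83 with the pseudocount raised to 50% of the median. All of these calls held without any 1 array.

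Some single genes known from pathogen defence, picked for their falls apart from ECS1, were called lower in the mutant. RING1, a ubiquitin ligase that promotes cell death during infection, had 154 and 86.7 in Ler, 16.1 and 16.6 in the mutant, 43.8 and 55.3 in Ws and 30.5 and 32.2 in the de-etiolated mutant (-2.62, SE 0.26, adjusted p = 2.3e-04). The mutant arrays were the lowest of the 8 and Ler the highest. SGT1A, a co-chaperone of resistance proteins, fell from 119 and 93.7 to 38.5 and 29.6 (-1.56, adjusted p = 8.6e-04), with 76.7 and 93.3 in Ws. SD1-29, a receptor kinase that senses bacterial fatty acids, fell from 93.4 and 89.3 to 34.3 and 30.0 (-1.43, adjusted p = 0.0051), and stood at 28.0 and 43.4 in Ws and 33.1 and 22 in the de-etiolated mutant. Of 39 listed genes of salicylate-type defence 1 was measured, ECS1, at 283 and 141 in Ler, 48.7 and 43.8 in the mutant, 27.4 and 24.7 in Ws and 28.1 and 19.9 in the de-etiolated mutant (-2.05, adjusted p = 0.0014). For SD1-29 and ECS1, Ler stood above all 6 other arrays. The call of each of these 4 genes held without any 1 array.

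Receptor kinases and chitinases gave mixed results. Over all named genes 4.5% were called higher and 5.85% lower. AT1G69730, of the wall-associated kinases and their relatives, had 148 and 106 in Ler, 5.47 and 17.6 in the mutant and 56.1 and 105 in Ws (-3.28, adjusted p = 5.1e-04), and 2 of 19 genes of that class were measured. Of 5 measured leucine-rich repeat kinases from AT1G51790 to AT1G51910, AT1G51805 (77.4 and 49.4 in Ler, 19.4 and 17.3 in the mutant, change -1.61) and AT1G51850 (-1.35) fell. The latter was not called without mutant replicate 1 (adjusted p = 0.16) or replicate 2 (0.15). Chitinases of the GH19 family, which cut fungal chitin, had 2 of 5 measured members higher and 2 lower. Their median was -0.71, and -0.11 with quantile normalization. AT2G43620 had 1196 and 654 in Ler, 112 and 92.0 in the mutant, 92.0 and 209 in Ws and 109 and 59.4 in the de-etiolated mutant (-3.09, adjusted p = 5.6e-04). AT2G43610, of the same class, went the other way, from 49.3 and 67.6 to 220.1 and 142 (1.57, adjusted p = 0.0013). AT1G02360 rose (1.26) and AT4G01700 fell (-0.90), and their calls were lost without mutant replicate 2 (adjusted p = 0.052 and 0.14). AT4G01700 was also not called without either Ler array, mutant replicate 1 or either array of the de-etiolated mutant (up to 0.28).

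Several enzymes of specialised metabolism were lower and a few higher. Of 7 measured CYP71B cytochromes P450 4 fell, against 5.85% of all named genes called lower, and none rose, with a median of -0.75. CYP71B23 had 143 and 141 in Ler, 23.1 and 20.6 in the mutant, 33.2 and 98.0 in Ws and 31.8 and 17.3 in the de-etiolated mutant (-2.55, adjusted p = 0.0022). The calls of CYP71B26 (-1.19), CYP71B34 (-0.77) and CYP71B6 (-0.72) were lost without mutant replicate 1 (adjusted p = 0.076, 0.12 and 0.2). Other arrays whose absence ended a call were Ler replicate 2 for CYP71B26 (0.067), Ler replicate 1 and mutant replicate 2 for CYP71B34 (up to 0.13), and all 3 of these for CYP71B6 (up to 0.16). Of 9 glutathione S-transferases, which attach glutathione to reactive compounds, 3 fell and 1 rose, with a median of -0.23. GSTL3 had 547 and 425 in Ler and 238 and 189 in the mutant (-1.17, adjusted p = 0.0018), and GSTU27 335 and 252 in Ler and 146 and 129 in the mutant (-1.07, adjusted p = 0.0043). GSTU18 fell (-0.66) and GSTU26 rose (0.89), and neither was called when Ler replicate 1 was omitted (adjusted p = 0.28 and 0.11), or without mutant replicate 1 (0.1 and 0.14), nor GSTU18 without mutant replicate 2 (0.21) or with quantile normalization. Berberine bridge enzyme-like oxidases had 1 of 6 measured members higher, AT5G44440 (21.1 and 16.6 in Ler, 60.7 and 75.5 in the mutant, 1.70), and 1 lower, AT5G44390 (67.5 and 75 in Ler and 12.4 and 12.5 in the mutant, -2.27).

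Glycosyltransferases of the UGT family, which attach sugars to small molecules, had 3 of 28 measured members higher and 1 lower, near the 4.5% and 5.85% of all named genes, with a median of 0.11. UGT71C1 had 71.7 and 65.7 in Ler and 185 and 172 in the mutant (1.34, adjusted p = 0.0028). UGT87A2, which influences flowering time, fell from 159 and 150.5 to 51.2 and 53.9, with 127 and 179.8 in Ws (-1.50, adjusted p = 5.9e-04). UGT72B3 (1.04) and UGT72E2 (0.66), which glucosylates lignin precursors, rose, and both calls were lost without any 1 array of Ler or the mutant (adjusted p up to 0.15 and 0.17). None of 5 measured WRKY transcription factors, a family that regulates defence, was called by limma (0 at an unadjusted p under 0.05), and their changes lay between -0.26 and -0.12. None of 5 measured genes of flavonoid and anthocyanin synthesis was called by limma either (0 at an unadjusted p under 0.05). DFR, which makes anthocyanin precursors, had 272 and 532 in Ler and 409 and 453 in the mutant, so the mutant lay between the Ler arrays. The same order held for AT4G14090, of the same list, at 164 and 329 in Ler and 267 and 283 in the mutant. Pathways read through few genes were those of jasmonate, with PDF1.2b, a defensin, at 56.7 and 37.8 in Ler and 52.1 and 28.5 in the mutant (adjusted p = 0.72), and of glucosinolates. BCAT4, which starts methionine-derived glucosinolate synthesis, fell (-0.78) and was not called when Ler replicate 1 or either mutant array was omitted (adjusted p up to 0.17).

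Most of the largest falls were in genes that the annotation used here names only by locus tag. AT5G43450 had 76.4 and 244 in Ler, 2.28 and 2.85 in the mutant, 47.0 and 188 in Ws and 57.9 and 64.2 in the de-etiolated mutant (-4.67, SE 0.55, adjusted p = 5.2e-04). The mutant signals of this gene were below the pseudocount, and its change was -3.15 with the pseudocount raised to 50% of the median. AT1G80130 had 1247 and 1122 in Ler, 182 and 153 in the mutant, 974 and 1152 in Ws and 568 and 431 in the de-etiolated mutant (-2.80, adjusted p = 6.7e-06). In AT5G43450 and AT1G80130 the mutant lay below all 6 other arrays. AT2G41090 (1932 and 1617 in Ler, 228 and 225 in the mutant, -2.95) and AT5G24210 (199 and 87.4 in Ler and 16.1 and 7.43 in the mutant, -3.26) were also lowest in the mutant. AT3G16530 had 459 and 451 in Ler, 67.4 and 71.8 in the mutant and 444 and 834 in Ws (-2.66), and AT1G43910 306 and 665 in Ler, 29.3 and 31.3 in the mutant and 103 and 508 in Ws (-3.77).

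In some genes Ler was the group apart. AT5G55450 had 1339 and 624 in Ler, 132 and 109 in the mutant, 83.3 and 83.9 in Ws and 109.6 and 82.0 in the de-etiolated mutant (-2.90). AT1G65500 had 533 and 466 in Ler, 25.5 and 11.4 in the mutant, 49.9 and 62.6 in Ws and 25.2 and 29.8 in the de-etiolated mutant (-4.63). SAL2, a phosphatase, had 70.4 and 63.2 in Ler and 12 and 14 in the mutant (-2.13), with all other arrays at or below 33.5. The carboxypeptidase-like scpl46, by contrast lowest in the mutant, fell from 46.1 and 43.9 to 6.25 and 4.0 (-2.58), a change of -1.59 with the pseudocount raised to 50% of the median. AT1G70810 (-3.77) was not called without mutant replicate 1 (adjusted p = 0.053), nor AT1G21520 (-2.34) without Ler replicate 2 (0.079) or mutant replicate 1 (0.11).

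**Figure D4:**
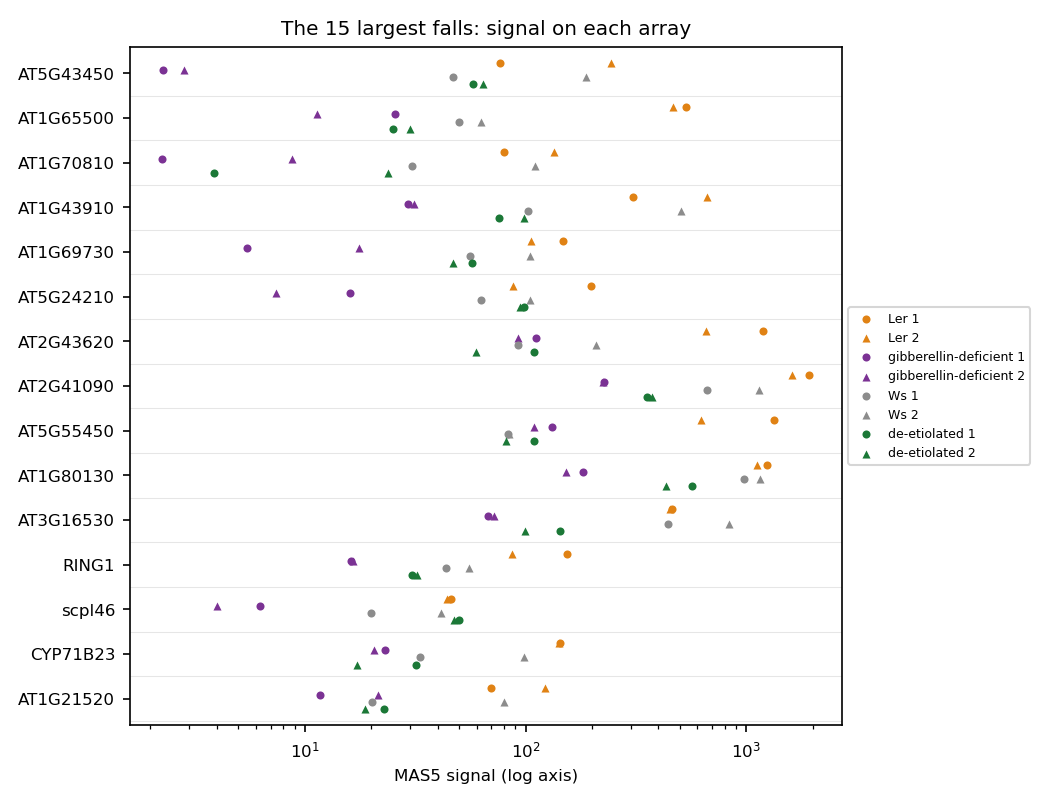
Signal (horizontal axis, log scale) of the genes with the 15 largest falls (rows) on each of 8 arrays, with circles for replicate 1, triangles for replicate 2 and a colour for each group. The mutant points lie to the left of the Ler points in every row, and in AT1G65500 and AT5G55450 the Ws and de-etiolated points lie below the Ler points too.

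Of 15 plastid-encoded ribosomal protein genes 7 fell and none rose, with a median of -0.39, and both mutant arrays lay below both Ler arrays for 11. Over all named genes 5.85% were called lower, and over all tested probe sets 27.7% had both mutant arrays below both Ler arrays. Of 27 genes for photosystem, cytochrome b6f and Rubisco proteins none fell and 1 rose, with a median of 0.12. With quantile normalization the median was -0.37 for the ribosomal protein genes and 0.023 for the photosystem, cytochrome b6f and Rubisco genes. These classes were formed after values had been seen, and the difference between them was not tested. Signal of rpl22 was 1415 and 1241 in Ler, 339 and 256 in the mutant, 1715 and 1704 in Ws and 1422 and 1667 in the de-etiolated mutant (-2.16, SE 0.15). Signal of rps3 was 1685 and 1837 in Ler, 637 and 628 in the mutant, 2102 and 1964 in Ws and 1553 and 1861 in the de-etiolated mutant (-1.47, adjusted p = 5.5e-05). In both genes each mutant array was more than 2-fold below each of the 6 others.

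Most of these falls lay side by side in the plastid genome. In the gene order of TAIR10.1, rpoA (-1.05), rpl36 (-1.36), rpl14 (-2.15), rpl16 (-0.56), rps3 (-1.47), rpl22 (-2.16) and rps19 (-0.28) follow each other among the measured genes, and all but rps19 were called lower. These genes belong to 1 cluster that plastids transcribe together, so they are not separate observations. The size of the change was not even along the cluster. rpl14 had 656 and 745 in Ler and 175 and 137 in the mutant, its neighbour rpl16 had 1796 and 1636 in Ler and 1197 and 1124 in the mutant, and rps19, the last of the run, had 947 and 1175 in Ler and 836 and 902 in the mutant (adjusted p = 0.19). The calls of rpl36, rpl14, rps3 and rpl22 held without any 1 array. That of rpl16 was lost without any 1 array of Ler or the mutant (adjusted p up to 0.13). rpoA, an RNA polymerase subunit, had 654 and 1653 in Ler and 506 and 494 in the mutant, and its change was -0.39 without Ler replicate 2 (adjusted p = 0.24). It was also not called without either mutant array (up to 0.19) or any 1 of the Ws and de-etiolated arrays (up to 0.061).

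Outside the cluster, rps15 fell from 163 and 144 to 79.3 and 66.5 (-1.04, adjusted p = 0.0023) and rpl32 from 871 and 1120.3 to 582 and 646 (-0.69), the latter not called when Ler replicate 2 was omitted (adjusted p = 0.066), or without mutant replicate 1 (0.095). Other ribosomal protein genes stayed close to Ler, such as rps18 (359 and 417 in Ler, 405 and 373 in the mutant) and rps2 (936 and 961 in Ler and 886 and 922 in the mutant). rbcL, the large subunit of Rubisco, rose from 837 and 697 to 1291 and 1038 (0.60), with 509 and 513 in Ws, and was not called when Ler replicate 2 was omitted (adjusted p = 0.13), or without mutant replicate 1 (0.2). Of 9 plastid NDH genes, for a complex that cycles electrons around photosystem I, ndhG (-0.95), ndhH (-0.58) and ndhK (-0.55) fell, and none of the 3 was called when Ler replicate 1 or either mutant array was omitted (adjusted p up to 0.12, 0.26 and 0.21), nor ndhH and ndhK without Ler replicate 2 (0.15 and 0.057) or ndhH without either Ws array (0.062 and 0.062). The polymerase subunit rpoB fell too, from 99.8 and 94.0 to 56.4 and 62.2 (-0.68), and lost its call without any 1 array of Ler or the mutant (adjusted p up to 0.17). Over all plastid-encoded genes the number called lower was 7 and 8 without Ler replicate 1 and 2, and 7 and 6 without mutant replicate 1 and 2. The falls of accD (-0.74), of fatty acid synthesis, and ycf3 (-0.58), of photosystem I assembly, were not called when Ler replicate 1 was omitted (adjusted p = 0.074 and 0.3), or without mutant replicate 2 (0.11 and 0.11), nor ycf3 without mutant replicate 1 (0.25). The 25S ribosomal RNA control was higher in both mutant arrays than in both Ler arrays, as given above, and its part in the plastid results was not tested.

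**Figure D5:**
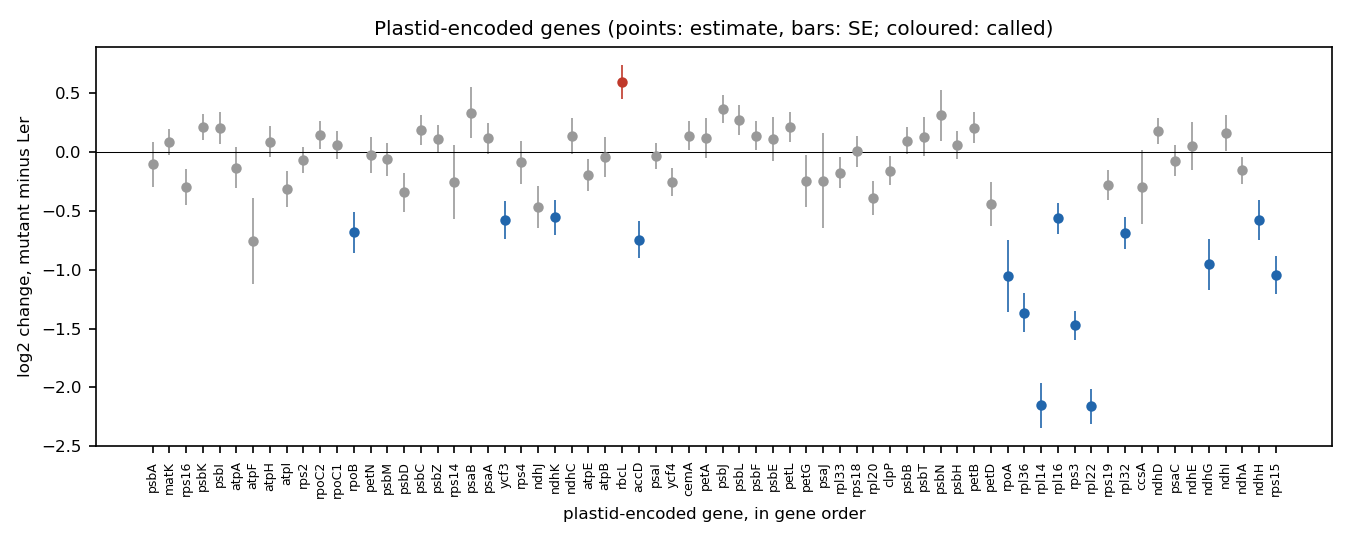
Log2 change (mutant minus Ler, vertical axis) with its SE for each measured plastid-encoded gene, in gene order along the plastid genome (horizontal axis), with called genes coloured. The deepest falls, rpl22 (-2.16) and rpl14 (-2.15), lie in the block from rpoA to rps19, and most photosystem genes lie near 0.

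Nuclear genes of the chloroplast had 1 to 2 called members per class, against 10.3% of all named genes called. Of 8 nuclear-encoded photosystem and light-harvesting subunits 1 rose, PSB27, a photosystem II assembly factor (1262 and 1089 in Ler, 1561 and 1593 in the mutant, 0.43). That call was lost without any 1 of the Ler, mutant or Ws arrays (adjusted p up to 0.2). The antenna proteins LHCB4.1 (0.22) and LHCB4.2 (0.45) and the photosystem I subunit PSAN (-0.02) were not called. Of 11 nuclear-encoded subunits and factors of the NDH complex and of cyclic electron flow 2 fell and none rose, with a median of -0.30. PIFI, which is needed for NDH activity, had 634 and 470.0 in Ler, 232 and 245 in the mutant and 389 and 346 in Ws (-1.19, adjusted p = 0.0015). CRR41, an NDH assembly factor, had 101 and 110.3 in Ler, 37.2 and 56.9 in the mutant and 119 and 102 in Ws (-1.15), and was not called without mutant replicate 1 (adjusted p = 0.052). The mutant was lowest of the 4 groups for both genes.

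Among single genes of chloroplast proteins, CaS, a calcium-sensing protein of the thylakoid, fell from 1019 and 1042 to 519.5 and 599.6 (-0.88, adjusted p = 0.0025), which held without any 1 array. FTSZ2-2, of chloroplast division, fell from 182 and 145 to 106 and 78.4 (-0.82), and was not called when Ler replicate 1 was omitted (adjusted p = 0.12), or without mutant replicate 2 (0.13). PAC, which chloroplast development requires, fell from 57.5 and 64.9 to 31.5 and 36.4 (-0.80), and TAAC, a thylakoid ATP/ADP carrier, from 143 and 154 to 92.6 and 96.4 (-0.64). Both lost their calls without any 1 array of Ler or the mutant (adjusted p up to 0.17 and 0.17). These genes were picked after their values had been seen. Of 11 measured mitochondrion-encoded genes cox1, a subunit of cytochrome oxidase, was called higher, at 119 and 98.7 in Ler and 213 and 145 in the mutant (0.68), and none was called lower. The call of cox1 was lost without either Ler array, mutant replicate 1 or either Ws array (adjusted p up to 0.37). The median of the mitochondrial genes was 0.40, and both mutant arrays lay above both Ler arrays for 6 of them, such as nad4 (97.6 and 135 in Ler, 191 and 159.5 in the mutant, adjusted p = 0.073). Such an order held for 29.7% of all tested probe sets. FDH, the mitochondrial formate dehydrogenase encoded in the nucleus, fell from 915 and 557 to 297 and 217, with 967 and 889 in Ws (-1.48, adjusted p = 0.0013).

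Peroxisomal and glyoxylate enzymes, a class that includes fatty acid breakdown in seedlings among other functions, had 4 of 7 measured members lower and none higher. Their median was -0.72, and 5.85% of all named genes were called lower. ICL, isocitrate lyase of the glyoxylate cycle, had 1295 and 1524 in Ler, 497 and 726 in the mutant, 1920.0 and 1729 in Ws and 1369 and 1771 in the de-etiolated mutant (-1.22, SE 0.18, adjusted p = 0.0017). SDRB, a peroxisomal reductase of fatty acid breakdown, fell from 302 and 288 to 136 and 159 (-0.99, adjusted p = 0.0021). OPCL1, which activates jasmonate precursors, fell from 95.1 and 105 to 47.0 and 49.0 (-1.01, adjusted p = 0.0045). For these 3 genes the mutant arrays were the lowest of all 8, and the calls held without any 1 array. AIM1, a multifunctional enzyme of beta-oxidation, fell too (-0.72), and was not called when Ler replicate 1 was omitted (adjusted p = 0.054), or without mutant replicate 1 (0.072). The other members hardly differed, with changes of -0.02 for PAHX, 0.00052 for the photorespiratory enzyme HPR and 0.11 for PEX4.

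Of 8 enzymes of starch and sucrose metabolism 3 fell, against 5.85% of all named genes called lower, and none rose, with a median of -0.38. ATSPS4F, a sucrose-phosphate synthase, had 70.1 and 57.6 in Ler, 18.5 and 17.5 in the mutant and 113 and 148 in the de-etiolated mutant (-1.66, adjusted p = 0.0014). SBE2.2, a starch-branching enzyme (-0.77), and APL3, a subunit of ADP-glucose pyrophosphorylase (-0.90), were not called when Ler replicate 2 was omitted (adjusted p = 0.09 and 0.23), or without either mutant array (up to 0.13 and 0.19), nor APL3 without Ler replicate 1 (0.09). Of 9 sugar carriers 2 were called higher, against 4.5% of all named genes, and none lower, with a median of 0.40. TMT1, which loads sugars into the vacuole, had 464 and 497 in Ler, 775 and 811 in the mutant, 724 and 602 in Ws and 634 and 547 in the de-etiolated mutant (0.72). SWEET2, a vacuolar sugar transporter, rose from 86.1 and 75.5 to 122 and 115 (0.54). TMT1 was not called when Ler replicate 1 was omitted (adjusted p = 0.053), or without either mutant array (up to 0.063), and SWEET2 was not called without any 1 of the 8 arrays (up to 0.23).

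Of 17 genes for ascorbate and glutathione metabolism and for repair of oxidised methionine 4 fell and none rose, and 13 had changes below 0, with a median of -0.24. Among all named genes 5.85% were called lower. MSRB9, a methionine sulfoxide reductase, had 899 and 885 in Ler, 449 and 466 in the mutant and 848 and 1006 in Ws (-0.96, adjusted p = 9.5e-04), a call that held without any 1 array. VTC4, of ascorbate synthesis, fell from 405 and 269.9 to 150.2 and 164 (-1.06), and SAPX, the ascorbate peroxidase of the stroma, from 796 and 777 to 500.0 and 522 (-0.62). GR1, a glutathione reductase, had a change of -0.58 and an adjusted p of 0.049. The calls of VTC4, SAPX and GR1 were lost without Ler replicate 1 (adjusted p = 0.053, 0.064 and 0.11) or mutant replicate 1 (0.06, 0.093 and 0.3). SAPX and GR1 were also not called without mutant replicate 2 (0.061 and 0.094), nor GR1 without Ler replicate 2 (0.2).

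Classes of membrane trafficking and protein turnover had 0 to 2 called members each, against 10.3% of all named genes. Of 11 ESCRT proteins, which sort membrane proteins for degradation, 2 fell and none rose, with a median of -0.32. VPS24.1 fell from 78.3 and 67.0 to 26.5 and 22.6 (-1.46, adjusted p = 0.004). VPS2.1 fell as well (-0.80) and was not called without either Ler array (adjusted p = 0.061 and 0.064) or mutant replicate 1 (0.12). In the PRA1 family of vesicle proteins PRA8 (0.73) and PRA1.B6 (0.60) rose of 10 measured, and neither was called when Ler replicate 1 or either mutant array was omitted (adjusted p up to 0.13 and 0.12), nor PRA1.B6 without Ler replicate 2 (0.057). None of 7 exocyst subunits, 8 tetraspanins or 11 ubiquitin-specific proteases was called by limma, with medians of -0.03, 0.28 and -0.05. At an unadjusted p under 0.05 there were 0, 4 and 2. Of 10 autophagy proteins ATG8B, which coats the autophagosome, fell (-0.72), and was not called without either Ws array or any 1 array of Ler or the mutant (adjusted p up to 0.21).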

How the data were processed

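RNA of whole seedlings was hybridised to Affymetrix ATH1 arrays, which hold 22810 probe sets, 64 of them controls. The authors deposited 1 signal intensity per probe set and array, computed with MAS5, per the submitters' processing notes, and its settings are not given in the sources used here. The scaling of the deposited values was kept.

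A pseudocount of 2.96, 10% of the median signal of probe sets that name a gene, was added before log2 was taken. Control probe sets and the lowest 40% by mean over all arrays were left out. A probe set could therefore pass through 1 group in which it was high. The remaining 13647 probe sets of all 8 arrays were fitted with limma 3.58.1 in R 4.3.3, with 1 mean per group and a prior variance that followed the mean, and p-values were adjusted by Benjamini-Hochberg. There were 4 residual degrees of freedom and 8.00 prior ones, and the median SE was 0.197. The small number of arrays limits the precision. On simulated data with the spread of these arrays the fit recovered 58 of 100 probe sets changed 2-fold and 88 of 100 changed 4-fold, with 10 false calls. Only these probe sets were changed there, a smaller share than the 10.7% called here, so the recovery in the data can differ. Tables and plots were made with Python 3.11.15, numpy 2.4.6, pandas 2.3.3 and matplotlib 3.10.9.

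Of the probe sets 13513 name 1 gene in the platform annotation and 503 name several. Of the former 13436 were matched to the gene table of assembly TAIR10.1, where 1628 have a symbol other than the locus tag. The probe set with the highest mean stood for a gene. No level was compared between genes.

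The groups, gene lists and classes were chosen with earlier results of these data known. Genes were named by rule, as the 15 largest rises and 15 largest falls whose arrays did not overlap between groups, up to 5 called genes of each list with 2 or more calls, all measured gibberellin genes and the markers. Other genes named were chosen after their values were seen, as were the classes matched by locus tag. Counts of classes added to the first lists are likewise descriptions. Among these are the peroxisomal enzymes, the CYP71B genes, the starch and sucrose enzymes and the ascorbate and glutathione genes. Another pseudocount, filter, normalization, prior, threshold and set of arrays, a replicate block and the omission of each array were tried as alternatives. The letters A and B in the sample titles were read as replicates 1 and 2. 1 called gene of the microtubule and actin class is counted but not reported here.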

Additional observations from a re-analysis of the deposited data

Results flagged for a closer look

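The control probe set for 25S ribosomal RNA, which no comparison used, gave a mean signal of 54.6 ± 21.3 (SD, n = 2) in the mutant and 28.2 ± 3.08 (SD, n = 2) in Ler. Both mutant arrays lay above both Ler arrays, and the spread between the mutant arrays was close to the difference between the means.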

How the results depend on the processing

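Against 1464 probe sets called (621 higher, 843 lower), an adjusted p threshold of 0.01 left 485 (194 higher, 291 lower). Leaving out single arrays gave 446 to 1606 calls, 152 to 711 higher and 290 to 895 lower. The lowest counts came when 1 array was left in Ler or the mutant, with that array assumed to vary like the other groups. Without Ler replicate 1 there were 522 calls, without Ler replicate 2 848, without mutant replicate 1 446 and without mutant replicate 2 561. All other settings stayed within 1.5 times the count, from 1032 with no filter on dim probe sets to 1645 with only the 4 arrays of both groups. With the replicate block 1580 were called (679 higher, 901 lower). Over all tested probe sets, deviations of arrays with the same letter correlated between groups with r from -0.033 to 0.137. Between Ler and the mutant r was 0.081. The letters were therefore taken as names only, although the low-oxygen genes leaned towards replicate 1 in Ler and in both mutants. With quantile normalization the median change was 0.016, against 0.0086 in the main fit. Of 65 genes named by rule 55 were called, 32 of them without any 1 array too. Without single arrays the change of PYK10 ranged from -0.18 to 0.073 (above 0 without Ler replicate 1), that of EXPA7 from -0.56 to 0.14 (above 0 without mutant replicate 2) and that of SLY1 from -0.26 to 0.087 (above 0 without Ler replicate 2 and, at 0.0065, without mutant replicate 1), and none of the 3 was called. Of the 55 called genes 20 were not called at 0.01, 10 with a constant prior variance and 10 with no filter on dim probe sets. The latter 2 groups held TUB6, AT1G33055, CYP71B6, AT2G17850, CSLC04, UGT72E2, GSTU18 and UGT72B3 in common, with COR47 and CSLD2 in the first and EXPB3 and XTH33 in the second. CSLC04 was also not called with no pseudocount, quantile normalization or the replicate block, nor GSTU18 with quantile normalization or only 4 arrays, and AT1G22690 was called lower with the block. Of 51 counts of called list members 38 fell by over 1.5 times at 0.01, 20 with a constant prior variance, 17 with no filter and 13 with the lowest 60% left out. The cause was not tested.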
